A study of Mus musculus with 12 samples.

Results

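The inhibitory receptor genes and exhaustion factors Pdcd1, Tox, Tox2, Lag3, Havcr2, Tigit, Ctla4, Cd160, Entpd1 and Btla, were followed across the 12 RNA-seq libraries of this study. They were taken by symbol, as a set chosen with earlier results of these data known, and make up 10 of the 35855 genes to which transcripts could be assigned. All 10 were found, each as a single gene, and all 10 had enough counts to be tested in every comparison. The libraries were made from CD8 T cells sorted from the spleen of C57BL/6 background mice, 3 from each of 4 groups. WT and TCF-1 cKO cells were taken pre-transplant, and donor CD8 T cells of both genotypes were taken post-transplant, at day 7, from the spleen of lethally irradiated BALB/c recipients. TCF-1 cKO mice carry floxed Tcf7 and a Cre driven by Cd4 regulatory sequence, which deletes the gene at the double-positive stage of the thymus and therefore in CD4 as well as CD8 T cells. The recipients were also given T cell-depleted WT bone marrow of the same MHC haplotype as the donor T cells. The methods of the paper name the transplanted T cells as CD3 donor T cells, and a figure legend names sorted CD8 T cells. Post-transplant cells were recognised by the donor MHC molecule H2Kb, which does not tell cells of the marrow from the donor T cells. Passage through a recipient, activation and the second sort cannot be told apart in any comparison of the stages. The sources used here do not say whether replicates came from separate mice, so p-values measure the spread between these libraries.

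Inhibitory receptors are surface proteins that T cells put up after activation and that dampen signalling by the T cell receptor. PD-1 (Pdcd1) binds PD-L1 and PD-L2 and recruits phosphatases. CTLA-4 (Ctla4) competes with CD28 for CD80 and CD86, LAG-3 (Lag3) binds MHC class II, and TIM-3 (Havcr2) binds several ligands, among them galectin-9. TIGIT (Tigit) competes with CD226 for CD155, while CD160 (Cd160) and BTLA (Btla) both bind HVEM, the product of Tnfrsf14. CD39 (Entpd1) is an ectoenzyme that breaks down extracellular ATP. TOX and TOX2 are HMG-box nuclear factors, and TOX is required for the program of exhausted CD8 T cells, which carry many of these receptors together for as long as antigen persists. TCF-1, the product of Tcf7, keeps a progenitor-like pool of such cells. The receptors are also found outside CD8 T cells, as BTLA on B cells, CD39 on B cells, regulatory T cells and myeloid cells, and CTLA-4 and TIGIT on regulatory T cells.

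Depth, the targeted gene and RNA of other cells bear on the values below. The totals lay between 18184814 and 32657005 estimated counts in 9 libraries and between 4520270 and 9577076 in TCF-1 cKO cells taken pre-transplant, so that a floor of 3 counts came to 0.0922 to 0.667 CPM (estimated counts scaled to the library total). The targeted gene did not separate the post-transplant groups. Tcf7 was at 8.999, 9.48 and 9.31 CPM in post-transplant TCF-1 cKO replicates 1 to 3 and at 17.2 and 12.1 CPM in WT replicates 1 and 2. At 6.89 CPM, the library labelled WT replicate 3 was under each of these, and results that rest on it are given with and without it. Pre-transplant, Tcf7 was at 115 to 205 CPM in WT and 56.8 to 97.1 CPM in TCF-1 cKO. The summed CD8 T cell markers were lower in TCF-1 cKO there too, at 631 to 693 CPM against 1335 to 1440 CPM. The part of CD8 T cell content in the Tcf7 difference was not tested. One label of post-transplant TCF-1 cKO replicate 2 names CD4 T cells, and its Cd4 level, 1.42 CPM against 432 CPM of Cd8a, was within the range of the other post-transplant libraries.

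The pre-transplant libraries held much RNA of other cells. The summed level of 6 CD8 T cell markers was 1335 to 1440 CPM in WT and 631 to 693 CPM in TCF-1 cKO pre-transplant, against 3536 to 3780 CPM and 4590 to 5459 CPM post-transplant. B cell markers, 4 genes, summed to 3498 to 4327 CPM in WT and 3207 to 3554 CPM in TCF-1 cKO pre-transplant, and to no more than 15.8 CPM in any post-transplant library. Myeloid markers went from 1105 to 2918 CPM over the 6 pre-transplant libraries to 18.8 to 159.5 CPM over the 6 post-transplant ones. Regulatory T cell markers, 3 genes, summed to 49.1 to 64.5 CPM in pre-transplant WT and to 6.08 to 31.3 CPM in pre-transplant TCF-1 cKO. Markers of plasma, dendritic and gamma-delta T cells were also followed, with 2 of 3, 3 of 4 and 0 of 1 tested lower post-transplant in WT. None of the markers was at 0 in all libraries of a group. In bulk RNA fewer cells of a type and less RNA per cell cannot be told apart, and the part of these other cells in the results was not tested.

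**Figure D1:**
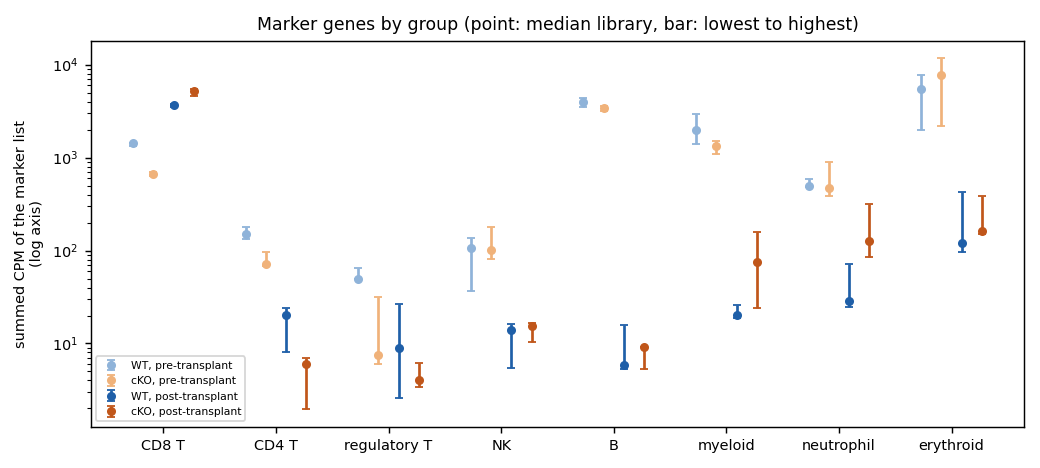
Summed level of marker genes, in CPM of the library total on a log axis, for 8 cell types in the 4 groups, with a point at the median library and bars from the lowest to the highest of 3. CD8 T cell markers rise and B, myeloid, erythroid and CD4 T cell markers fall from the pre-transplant to the post-transplant libraries of both genotypes.

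RefSeq promoter sequence of GRCm38.p6 was available for 8 of the 10 genes, in 14 windows, with no entry for Lag3 and Tox. Upstream windows of 250 bases are shown for 4 receptors on which the results below turn. The letters looked for were CTTTGA, the core that TCF family factors bind. Whether TCF-1 binds these windows or acts through them was not tested. Capitals mark CTTTGA on either strand. The windows are chr3:96814522-96814771 on the minus strand for Cd160, which also has a second start, chr16:43664185-43664434 on the minus strand for Tigit, chr11:46454681-46454930 on the plus strand for Havcr2 and chr1:94052554-94052803 on the minus strand for Pdcd1, each read 5′ to 3′ up to the base before the start.
Cd160: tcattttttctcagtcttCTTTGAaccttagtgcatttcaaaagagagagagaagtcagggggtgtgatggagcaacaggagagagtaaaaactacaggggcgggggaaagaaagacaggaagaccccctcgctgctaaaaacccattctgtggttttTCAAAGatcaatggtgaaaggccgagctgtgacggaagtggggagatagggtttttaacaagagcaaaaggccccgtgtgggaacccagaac
Tigit: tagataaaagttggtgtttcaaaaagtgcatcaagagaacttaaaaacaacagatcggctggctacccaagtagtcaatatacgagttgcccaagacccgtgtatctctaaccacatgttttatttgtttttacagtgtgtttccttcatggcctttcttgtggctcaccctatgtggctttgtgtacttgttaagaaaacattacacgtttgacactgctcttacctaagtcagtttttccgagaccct
Havcr2: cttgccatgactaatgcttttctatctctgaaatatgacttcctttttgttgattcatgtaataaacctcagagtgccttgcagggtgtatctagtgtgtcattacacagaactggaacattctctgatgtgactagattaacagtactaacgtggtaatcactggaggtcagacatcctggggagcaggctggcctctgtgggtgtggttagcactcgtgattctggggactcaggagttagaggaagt
Pdcd1: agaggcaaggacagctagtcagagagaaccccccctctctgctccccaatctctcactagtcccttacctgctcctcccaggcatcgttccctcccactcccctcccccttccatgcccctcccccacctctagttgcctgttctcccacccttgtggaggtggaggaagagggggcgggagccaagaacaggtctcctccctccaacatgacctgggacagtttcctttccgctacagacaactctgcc

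Cd160 held CTTTGA 2 times, starting 232 and 92 bases before the start, on opposite strands. Of the 14 windows, 3 held these letters, and they belonged to Cd160 and Tox2, beside 13.8% of all 32851 windows of this length in the table. The Tox2 windows among them, beginning at 163225203 and 163225204, overlapped and held the same site. The window of the second Cd160 start, 96829352 to 96829601, held none. TGANTCA, letters bound by AP-1 factors and searched on both strands, was found in 1 window, that of Havcr2, and in 6.75% of all windows. GGAAA, the core of NFAT sites, was found in 7 of the 14 windows, in 6 of the 8 genes, and in 55.6% of all windows. A match describes letters in the window only.

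**Figure D2:**
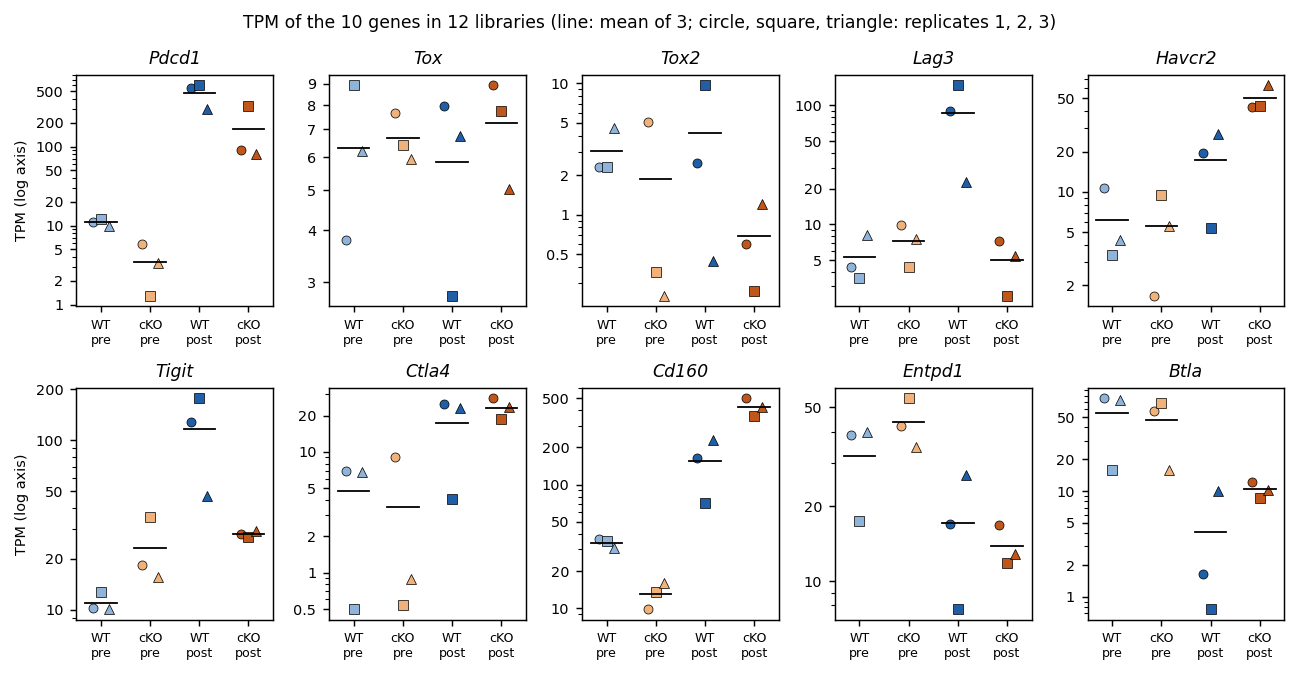
TPM of each of the 10 genes in each of 12 libraries on a log axis, with a line at the mean of 3 and a symbol for each replicate number. Pdcd1 and Cd160 are higher in every post-transplant library than in any pre-transplant library of the same genotype, and Lag3 is so in WT while its TCF-1 cKO groups overlap.

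Levels were compared between genes in TPM, a relative abundance that takes transcript length into account. Pre-transplant WT libraries had the highest mean TPM for Btla, at 54.6 ± 33.6 (SD, n = 3), followed by Cd160 at 33.9 ± 2.95 and Entpd1 at 31.9 ± 12.6, and the ranges of these 3 genes overlapped. Pdcd1 and Tigit followed at 11.1 ± 1.05 and 11.03 ± 1.49, and Tox, Havcr2, Lag3, Ctla4 and Tox2 had means between 3.07 and 6.31 TPM. Post-transplant the order of the WT means was Pdcd1 at 482 ± 160, Cd160 at 156 ± 80.1, Tigit at 117 ± 65.7 and Lag3 at 86.9 ± 62.9 TPM, where the last 3 overlapped and Pdcd1 lay above them in every library. Ctla4, Havcr2 and Entpd1 had nearly equal means of 17.4, 17.3 and 17.2 TPM, and Tox, Tox2 and Btla were lowest, at 5.82, 4.21 and 4.13 TPM. In post-transplant TCF-1 cKO libraries the order began with Cd160 at 427 ± 70.5 TPM, above Pdcd1 at 165 ± 138 TPM in each of the 3 libraries. Havcr2 at 49.9 ± 11.2 came next, then Tigit at 28.1 ± 1.10 and Ctla4 at 23.2 ± 4.59, whose ranges overlapped, and Lag3, among the highest in WT, was at 5.05 ± 2.39 TPM, below all but Tox2.

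Of the 10 genes, 6 rose with transplant in WT cells (FDR below 0.1, from Benjamini-Hochberg adjusted p-values over all genes tested in the quasi-likelihood test of edgeR) and none fell, beside 20.0% of all 16790 genes called, 9.70% higher and 10.3% lower. The median log2 fold change of the 10 was 2.91, against -0.30 over all genes, and 7 did not overlap in normalized counts, all higher, beside 33.2% of all genes. Library totals in place of TMM factors moved the median of all genes to -1.25 and the share of higher genes among those called from 48.4% to 14.8%. Pdcd1 (ENSMUSG00000026285, chromosome 1, 94038305 to 94052553 in GRCm38) was at 11.2, 12.1 and 10.04 TPM in WT replicates 1 to 3 pre-transplant and at 547, 599 and 300.2 TPM post-transplant. The groups were far apart, and the log2 fold change was 6.69 (SE 0.59, adjusted p = 0.000525), larger than that of 99.7% of the genes tested.

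Lag3 (ENSMUSG00000030124, chromosome 6, 124904361 to 124911705) went from 4.41, 3.52 and 8.10 TPM to 89.2, 148.6 and 22.9 TPM, a log2 fold change of 5.48 (SE 0.83, adjusted p = 0.00294). The library labelled WT replicate 3 had the lowest post-transplant level, above all 3 pre-transplant ones. Tigit (ENSMUSG00000071552, chromosome 16, 43648867 to 43664146) went from 10.2, 12.8 and 10.1 TPM to 128, 177 and 46.7 TPM, a log2 fold change of 4.66 (SE 0.69, adjusted p = 0.00270), again with replicate 3 lowest. Cd160 (ENSMUSG00000038304, chromosome 3, 96798763 to 96829351) had the opposite order of libraries, from 36.2, 34.8 and 30.5 TPM to 165, 71.2 and 230.6 TPM, with replicate 3 highest, and a log2 fold change of 3.18 (SE 0.55, adjusted p = 0.00517). Havcr2 (ENSMUSG00000020399, chromosome 11, 46454935 to 46481255) was at 10.7, 3.40 and 4.36 TPM pre-transplant and at 19.4, 5.40 and 27.1 TPM post-transplant, so its TPM ranges overlapped. Its log2 fold change was 2.64 (SE 0.72, adjusted p = 0.0357) with TMM factors, 1.81 (adjusted p = 0.108) with library totals and 1.24 (adjusted p = 0.182) in limma on log2(TPM + 1), and without pre-transplant WT replicate 2 or 3 its adjusted p was 0.134 or 0.164.

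Ctla4 rose with a log2 fold change of 3.22 (SE 0.98, adjusted p = 0.0546), from 0.499 to 6.96 TPM over the 3 pre-transplant WT libraries to 4.07 to 24.9 TPM post-transplant, and in limma on log2(TPM + 1) its adjusted p was 0.155. Without each library in turn the adjusted p of Ctla4 lay between 0.0127 and 0.142. Btla was the only one of the 10 with a negative value, -2.51 (SE 0.93, adjusted p = 0.107), which passed in 12 of 19 alternatives, among them the DESeq2 Wald test (adjusted p = 0.0394), limma-voom (adjusted p = 0.0732), library totals at -3.22 (adjusted p = 0.0374) and the fit without the library labelled WT replicate 3 at -3.93 (adjusted p = 0.00800), and its libraries scattered widely, at 75.3, 15.8 and 72.6 TPM pre-transplant and 1.66, 0.767 and 9.97 TPM post-transplant. Markers of B cells, which carry BTLA, fell in the same comparison, 4 of 4. These markers also fell 4 of 4 in TCF-1 cKO, where Btla had -0.03 (SE 0.45) with TMM factors and -1.73 with library totals. The part of B cells in the values of Btla was not tested. Tox was at 3.796, 8.93 and 6.21 TPM pre-transplant and 7.95, 2.78 and 6.74 TPM post-transplant, and these ranges overlapped. Its log2 fold change was 1.20 (SE 0.59, adjusted p = 0.215) in TMM-normalized counts and -0.13 in log2(TPM + 1), and 2.04 (adjusted p = 0.0233) once a trend with GC content and length was taken out. Tox2 had 2.02 (SE 1.03, adjusted p = 0.233) and was not called, but it passed without the library labelled WT replicate 3, at 2.82 (adjusted p = 0.0425), and without post-transplant WT replicate 2 it was at 0.30 (adjusted p = 0.899). Entpd1 had 0.20 (SE 0.77, adjusted p = 0.894) and was not called. Without the library labelled WT replicate 3 the 6 rises were still called, Pdcd1 at 7.16, Lag3 at 6.16, Tigit at 5.26, Cd160 at 2.99, Havcr2 at 2.35 and Ctla4 at 3.11, with adjusted p-values up to 0.0627. The summed CD8 T cell markers rose too, from between 1335 and 1440 CPM to between 3536 and 3780 CPM. Per 1000 counts of these markers in the same library, Pdcd1, Lag3 and Tigit were higher post-transplant without overlap. Cd160 overlapped, at 28.0, 25.2 and 22.7 pre-transplant and 46.0, 20.4 and 75.4 post-transplant. Havcr2 overlapped too, at 20.4, 6.17 and 7.77, then 15.4, 4.37 and 24.7. So did Ctla4, at 5.60, 0.625 and 8.44, then 13.1, 2.23 and 14.4. Tox, which was called higher with the GC content and length trend taken out, was lower in this ratio without overlap. It had 10.4, 20.7 and 15.7 pre-transplant and 9.26, 3.35 and 8.85 post-transplant.

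In TCF-1 cKO cells 7 of the 10 genes rose with transplant and none fell, beside 36.5% of all 18535 genes called, 19.7% higher and 16.8% lower. The median of the 10 was 2.29, against -0.29 over all genes, and 7 did not overlap in normalized counts, all higher, beside 47.0% of all genes. Cd160 had the smallest p, with 9.87, 13.5 and 16.1 TPM in TCF-1 cKO replicates 1 to 3 pre-transplant and 499, 358 and 424 TPM post-transplant, a log2 fold change of 6.84 (SE 0.54, adjusted p = 0.000109). Pdcd1 went from 5.80, 1.30 and 3.38 TPM to 90.8, 324 and 80.0 TPM, a log2 fold change of 7.41 (SE 0.84, adjusted p = 0.000277). Post-transplant replicate 2 was the high library here, and without it the value was 6.59 (adjusted p = 0.000993). Havcr2 rose from 1.67, 9.49 and 5.55 TPM to 43.0, 43.9 and 62.8 TPM, a log2 fold change of 5.11 (SE 0.64, adjusted p = 0.000464), and Ctla4 from 0.538 to 9.14 TPM to 18.6 to 27.7 TPM, a log2 fold change of 4.78 (SE 1.11, adjusted p = 0.0113). For these 4 genes the groups did not overlap in TPM, and the rise held with library totals and in log2(TPM + 1). In the ratio per 1000 CD8 T cell marker counts, Pdcd1 and Cd160 were higher post-transplant without overlap, while Havcr2 and Ctla4 overlapped. Havcr2 had 7.09, 41.5 and 22.4 pre-transplant and 28.2, 33.9 and 44.6 post-transplant. Ctla4 had 26.4, 0.352 and 1.97, then 11.96, 9.52 and 10.8.

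The other 3 rises in TCF-1 cKO cells depended on the scaling, and were not called with library totals or in log2(TPM + 1). Between pre- and post-transplant TCF-1 cKO libraries the median log2 fold change of all genes was -0.29 with TMM factors and -1.89 with library totals, and the share of higher genes among those called was 54.0% and 13.5%. Tox, at 7.64, 6.42 and 5.94 TPM pre-transplant and 8.94, 7.74 and 5.02 TPM post-transplant, had overlapping TPM ranges. Its log2 fold change was 2.31 (SE 0.42, adjusted p = 0.00318) with TMM factors, 0.72 (adjusted p = 0.174) with library totals and 0.08 (adjusted p = 0.871) in log2(TPM + 1). Tigit, at 18.5, 35.4 and 15.7 TPM pre-transplant and 28.2, 27.03 and 29.2 TPM post-transplant, had 2.27 (SE 0.41, adjusted p = 0.00324) with TMM factors, 0.64 (adjusted p = 0.260) with library totals and 0.36 in log2(TPM + 1). Lag3, at 9.87, 4.35 and 7.44 TPM pre-transplant and 7.22, 2.50 and 5.42 TPM post-transplant, had 1.75 (SE 0.59, adjusted p = 0.0525) with TMM factors, 0.11 (adjusted p = 0.887) with library totals and -0.47 in log2(TPM + 1), so its direction turned. Per 1000 CD8 T cell marker counts, these 3 genes were lower post-transplant without overlap. Tox had 43.7, 30.3 and 28.7 pre-transplant and 8.43, 8.87 and 5.17 post-transplant. Tigit had 20.1, 41.9 and 18.2, then 4.97, 5.72 and 5.62, and Lag3 26.1, 13.4 and 11.2, then 3.24, 1.19 and 2.58. The part of other cells in these ratios was not tested. Entpd1 was not called, at 1.21 (SE 0.54, adjusted p = 0.127), and turned to -0.39 with library totals and -1.58 (adjusted p = 0.00412) in log2(TPM + 1). Tox2 and Btla had 0.59 (SE 1.02) and -0.03 (SE 0.45), and with library totals -1.09 and -1.73 (adjusted p = 0.0136), of which that of Btla passed.

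**Figure D3:**
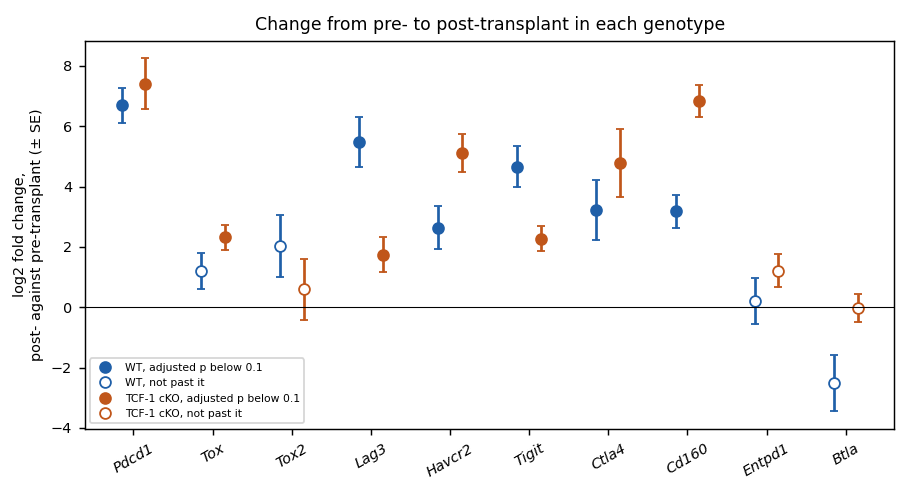
Log2 fold change from pre- to post-transplant of each of the 10 genes, with its SE, for WT and TCF-1 cKO libraries in TMM-normalized counts, where filled points have an adjusted p below 0.1. Pdcd1 is high in both genotypes, Lag3 and Tigit lie higher in WT, and Cd160 and Havcr2 lie higher in TCF-1 cKO.

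Within the pre-transplant stage none of the 10 genes passed the FDR between the genotypes in edgeR, where 0.0373% of all 18757 genes were called, 3 higher and 4 lower, and with library totals 9 higher and 3 lower. At an unadjusted p below 0.05 there were 2, beside 17.7% of all genes, limma-voom called none and the Wald test of DESeq2 called the same 2, Pdcd1 and Cd160. Pdcd1 was lower in TCF-1 cKO without overlap, and its log2 fold change was -1.87 (SE 0.71, adjusted p = 0.236). Cd160 was also lower without overlap, at -1.67 (SE 0.53, adjusted p = 0.215), and its value of -2.19 passed when TCF-1 cKO replicate 3 was left out (adjusted p = 0.0434). Tigit was higher in TCF-1 cKO without overlap, at 0.83 (SE 0.66, adjusted p = 0.484). Groups did not overlap for 3 of the 10 genes, beside 29.1% of all genes, and 0.1 is the smallest p that an exact two-sided permutation test of 3 libraries against 3 allows. The remaining 7 genes had values between -1.20 for Tox2 and 0.01 for Lag3 and were not called, and Lag3 turned to -0.43 without TCF-1 cKO replicate 1.

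The CD8 T cell share of the pre-transplant RNA moved with these differences. Cd8a, at 131 to 199.97 CPM in WT and 47.7 to 66.2 CPM in TCF-1 cKO, had a log2 fold change of -1.96 (SE 0.43, adjusted p = 0.179), as large as those of Pdcd1 and Cd160. Set against the 6 CD8 T cell markers in the same library, Pdcd1 had 14.4, 15.2 and 12.5 counts per 1000 marker counts in WT and 16.7, 3.87 and 9.38 in TCF-1 cKO, and these ranges overlapped. Cd160 had 28.0, 25.2 and 22.7 per 1000 in WT and 14.8, 20.8 and 26.0 in TCF-1 cKO, which also overlapped. Tigit had 5.10, 6.72 and 4.77 per 1000 in WT and 20.1, 41.9 and 18.2 in TCF-1 cKO, with every TCF-1 cKO library above every WT library. Lag3 had 5.91, 4.59 and 7.80 per 1000 in WT and 26.1, 13.4 and 11.2 in TCF-1 cKO, again without overlap, as had Tox with 10.4, 20.7 and 15.7 in WT and 43.7, 30.3 and 28.7 in TCF-1 cKO. The other 5 genes overlapped. A gene whose level per library is equal in both genotypes is higher in this ratio in TCF-1 cKO, where the markers are lower. The part of the other cells in these ratios was not tested.

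Post-transplant 4 of the 10 genes passed the FDR between the genotypes, Lag3, Tigit and Tox2 lower and Cd160 higher in TCF-1 cKO cells, beside 17.9% of all 16026 genes called, 15.4% lower and 2.51% higher. The median of the 10 was -0.04, against 0.15 over all genes. Groups did not overlap for 4 of the 10, Lag3 and Tigit lower and Cd160 and Havcr2 higher, beside 39.3% of all genes. Lag3 fell most. With 89.2, 148.6 and 22.9 TPM in WT and 7.22, 2.50 and 5.42 TPM in TCF-1 cKO, the groups did not overlap, and Lag3 was 23.1-fold lower in TCF-1 cKO, a log2 fold change of -4.53 (SE 0.88, adjusted p = 0.0448). Only 0.4% of the genes tested had a lower value.

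Tigit was at 128, 177 and 46.7 TPM in WT and at 28.2, 27.03 and 29.2 TPM in TCF-1 cKO. The TCF-1 cKO libraries were nearly equal and all below WT, and the log2 fold change was -2.34 (SE 0.62, adjusted p = 0.0518), a 5.06-fold difference. Cd160 was at 165, 71.2 and 230.6 TPM in WT and 499, 358 and 424 TPM in TCF-1 cKO, without overlap, a log2 fold change of 1.32 (SE 0.44, adjusted p = 0.0937). Tox2 (ENSMUSG00000074607, chromosome 2, 163203125 to 163324170) was at 2.48, 9.71 and 0.440 TPM in WT and 0.602, 0.261 and 1.20 TPM in TCF-1 cKO, so its groups overlapped although its log2 fold change was -3.47 (SE 1.16, adjusted p = 0.0950). WT replicate 2 carried that difference, and without it the value of Tox2 fell to -1.61 and was not called.

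Havcr2 was higher in TCF-1 cKO in every library, at 43.0, 43.9 and 62.8 TPM against 19.4, 5.40 and 27.1 TPM, and missed the FDR with a log2 fold change of 1.41 (SE 0.55, adjusted p = 0.138). Pdcd1, at 547, 599 and 300.2 TPM in WT and 90.8, 324 and 80.0 TPM in TCF-1 cKO, missed it with -1.80 (SE 0.66, adjusted p = 0.120), but was called lower in 6 of 19 alternatives, among them the DESeq2 Wald test (adjusted p = 0.0325), limma-voom (adjusted p = 0.0846) and limma on log2(TPM + 1) (adjusted p = 0.0887). Its groups overlapped because TCF-1 cKO replicate 2 lay above the library labelled WT replicate 3, and without TCF-1 cKO replicate 2 the value was -2.81 (adjusted p = 0.131). Btla was at 1.66, 0.767 and 9.97 TPM in WT and 12.3, 8.54 and 10.3 TPM in TCF-1 cKO, a log2 fold change of 1.21 (SE 0.78, adjusted p = 0.339). Tox, the nuclear factor, had 0.14 (SE 0.49, adjusted p = 0.870), Ctla4 0.25 (SE 0.60, adjusted p = 0.806) and Entpd1 -0.21 (SE 0.46, adjusted p = 0.785). Markers of other cells moved with the genotype here too, in both directions. The 3 neutrophil markers summed to 24.5 to 72.0 CPM in WT and 84.3 to 315.6 CPM in TCF-1 cKO, and the 4 myeloid markers to 18.8 to 25.9 CPM and 24.1 to 159.5 CPM. S100a9 was called higher at 2.49 (adjusted p = 0.0627) and Lyz2 at 2.16 (adjusted p = 0.0964), and neither was called with an offset for GC content and gene length. CD4 T cell markers summed to 8.11 to 24.2 CPM in WT and 1.96 to 7.02 CPM in TCF-1 cKO. Plasma cell markers summed to 54.3 to 107 CPM and 33.7 to 40.0 CPM. The CD8 T cell marker Cd3e was called lower at -2.81 (adjusted p = 0.0448), and at -3.28 (adjusted p = 0.0910) with the offset. The sum of the 6 CD8 T cell markers was higher in TCF-1 cKO. The part of these cells in the results was not tested.

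The library labelled WT replicate 3 lay nearest to TCF-1 cKO for Lag3, Tigit, Pdcd1, Havcr2, Cd160 and Btla. Without it 7 of the 10 genes were called, beside 29.1% of all genes. Pdcd1 was then lower by 2.16 on the log2 scale (adjusted p = 0.0438), Lag3 by 5.05 (adjusted p = 0.00153), Tigit by 2.80 (adjusted p = 0.00263) and Tox2 by 4.06 (adjusted p = 0.0127). Cd160 was higher by 1.55 (adjusted p = 0.0353), Havcr2 by 1.71 (adjusted p = 0.0625) and Btla by 2.63 (adjusted p = 0.00971). Without any single one of the other 5 libraries none of the 10 was called, and no more than 2 genes of all tested were.

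**Figure D4:**
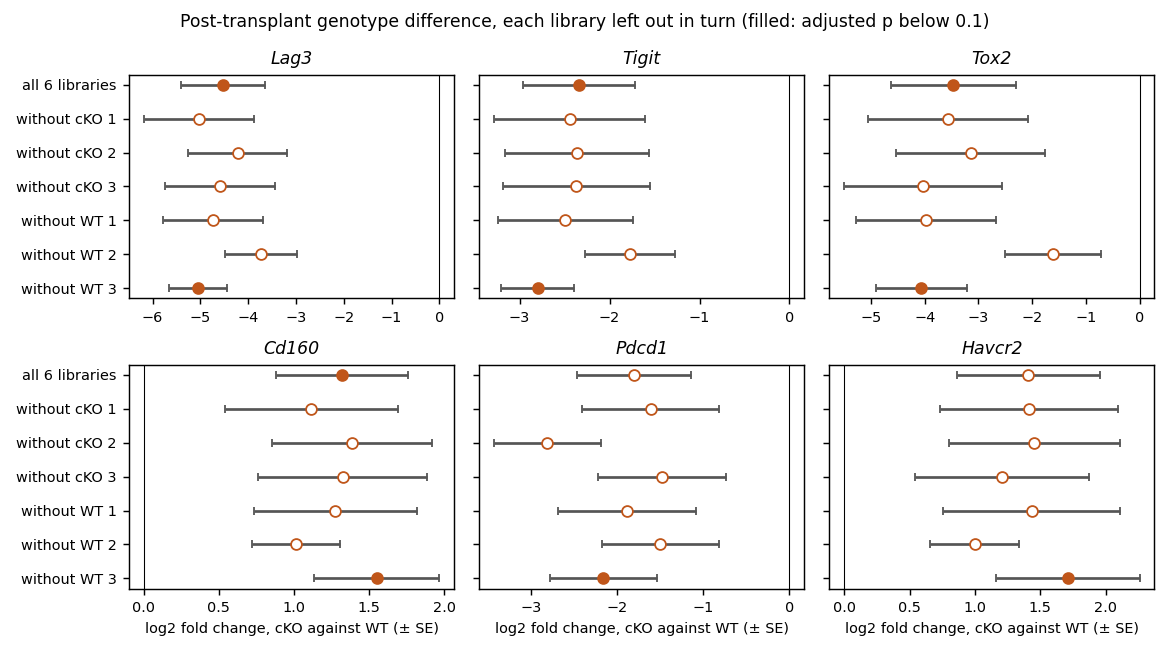
Post-transplant log2 fold change of TCF-1 cKO against WT with its SE for 6 genes, with all 6 libraries and with each left out in turn, where filled points have an adjusted p below 0.1. The sign is the same in all 7 fits of each gene shown, and the points are filled for 4 of the genes with all libraries, for all 6 without WT replicate 3, and for none without any other library.

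The post-transplant genotype difference followed the GC content of genes. Across the 16026 genes Spearman's rho between the log2 fold change and GC content was -0.55, a description over genes that are not independent. The median log2 fold change was 0.68 in the tenth of genes with the lowest GC content and -2.45 in the tenth with the highest. Single libraries showed it too, with rho between -0.37 and -0.56 in TCF-1 cKO, 0.47 and 0.56 in WT replicates 1 and 2, and -0.13 in the library labelled WT replicate 3. The genes lower in TCF-1 cKO were the GC-rich ones of the 10, Tox2 at 62.5%, Lag3 at 58.0%, Pdcd1 at 54.6% and Tigit at 52.3%, and those with positive values lay between 42.4% for Btla and 46.5% for Cd160, while Entpd1, at 48.3%, was near 0. Genotype and this trend cannot be told apart in WT replicates 1 and 2 against TCF-1 cKO.

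With an offset that takes out each library's trend with GC content and gene length, rho was -0.02 and 1 of the 10 genes was called, beside 5.17% of all genes. That gene was Lag3, with a log2 fold change of -2.33 (SE 0.51, adjusted p = 0.0910). Tigit had -1.79 (SE 0.50, adjusted p = 0.102), which just missed the threshold, and kept most of its size. Cd160 had 0.72 (SE 0.29, adjusted p = 0.185), Havcr2 0.69 (SE 0.35, adjusted p = 0.279) and Pdcd1 -0.72 (SE 0.50, adjusted p = 0.426). Tox2 shrank to -0.52 (SE 0.77, adjusted p = 0.728), and Tox and Ctla4 turned to -0.58 and -0.26. With the offset and without the library labelled WT replicate 3, an alternative chosen after seeing the data, 3 of the 10 genes were called, Lag3 at -2.85 (adjusted p = 0.0157), Tigit at -2.28 (adjusted p = 0.0123) and Btla at 1.64 (adjusted p = 0.0360), beside 20.2% of all genes.

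**Figure D5:**
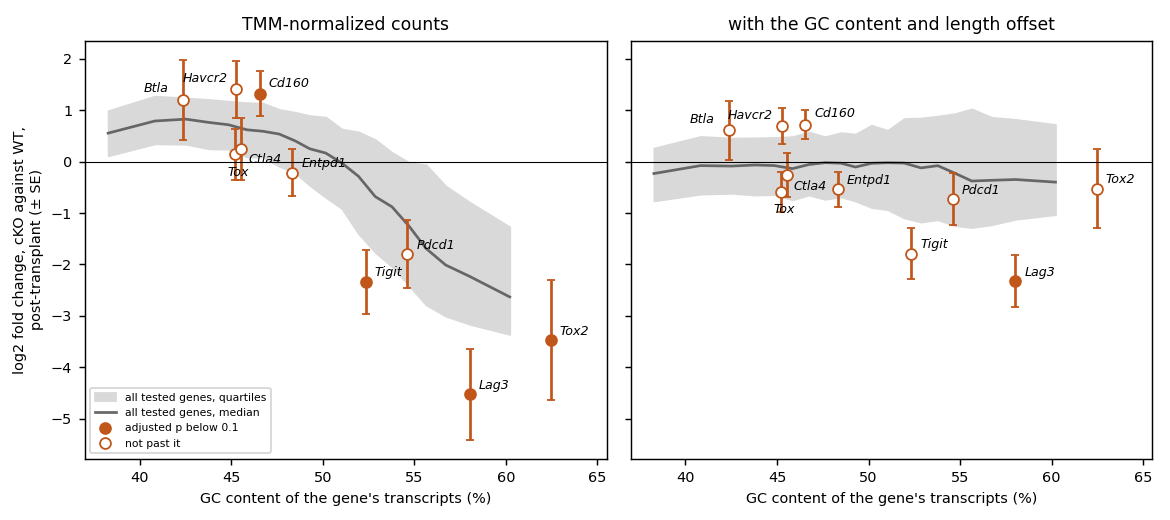
Post-transplant log2 fold change of TCF-1 cKO against WT with its SE for the 10 genes against the GC content of their transcripts, in TMM-normalized counts (left) and with the GC content and length offset (right), over the median and quartiles of all tested genes. In the left panel the median of all genes falls with GC content. In the right panel Lag3 and Tigit lie below the quartiles of genes of like GC content, and Cd160, Havcr2 and Btla lie above them.

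Whether the genotype difference itself changed from pre- to post-transplant was asked with an interaction term in a fit to all 12 libraries. None of the 10 genes passed in edgeR, where 0.00465% of 21526 genes did, and 4 had an unadjusted p below 0.05, beside 15.7% of all genes. These 4 were Cd160, whose genotype difference rose by 3.40 on the log2 scale (SE 0.70, adjusted p = 0.233), Lag3 at -3.96 (SE 0.95, adjusted p = 0.233), Tigit at -2.62 (SE 0.73, adjusted p = 0.233) and Havcr2 at 2.22 (SE 0.93, adjusted p = 0.284). With the GC content and length offset Cd160, Lag3 and Tigit had 2.79 (SE 0.61), -3.01 (SE 0.82) and -2.60 (SE 0.67), with adjusted p-values of 0.175, 0.208 and 0.200. Without the library labelled WT replicate 3 Cd160, Lag3, Tigit and Btla passed, at 3.85, -4.40, -2.99 and 3.93, beside 8.73% of all genes, and with the offset as well these 4 passed at 2.97, -3.37, -2.91 and 3.28, beside 2.84% of all genes. The Wald test of DESeq2 called Cd160, Lag3 and Tigit, limma-voom called none of the 10, and limma on log2(TPM + 1) called Lag3 and Cd160. The value of Pdcd1 was 0.48 (SE 0.85, adjusted p = 0.814) and that of Tox 0.89 (SE 0.69, adjusted p = 0.537).

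Transcripts within the 10 genes were read from the share of the gene's TPM. Pdcd1 and Tigit each have a single annotated transcript. Cd160 was carried by the transcript Cd160-201 in all groups, with 91.2% to 99.0% of the mean TPM, and Lag3 by Lag3-201, with 99.5% in post-transplant WT and 93.5% in post-transplant TCF-1 cKO, but 74.6% in pre-transplant TCF-1 cKO. In pre-transplant TCF-1 cKO libraries 55.8% of the TPM of Tox was the protein-coding Tox-201 and 20.9% and 23.2% were the retained-intron transcripts Tox-203 and Tox-204, while post-transplant Tox-201 held 93.4% in WT and 93.1% in TCF-1 cKO. Of Entpd1, Entpd1-211, a short processed transcript, held 59.1% of its TPM in pre-transplant TCF-1 cKO and 20.2% in pre-transplant WT. Estimated counts were between 5 and 242 for Tox2 in the pre-transplant libraries and between 11 and 62 for Pdcd1 in pre-transplant TCF-1 cKO, and these low counts limit both genes there.

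Other genes of the pathway were followed in lists, whose counts stand beside shares of all genes of 9.70% higher and 10.3% lower with transplant in WT, 19.7% and 16.8% in TCF-1 cKO, and 2.51% and 15.4% between the genotypes post-transplant, where 5.17% were called with the offset. Of 13 further inhibitory receptors, 4 rose and 2 fell with transplant in WT, and 6 rose and 2 fell in TCF-1 cKO. Klrg1, a receptor of short-lived effector cells, rose by 5.41 (SE 0.80) in WT and 6.68 (SE 0.69) in TCF-1 cKO on the log2 scale, and Klrc1, which encodes NKG2A, by 5.53 (SE 1.09) and 7.55 (SE 0.78). Ceacam1 fell by 5.53 in WT, and Cd96, another receptor for CD155, rose by 3.68 in TCF-1 cKO. Between the genotypes post-transplant 2 of the 13 were lower in TCF-1 cKO, Cd5 at -3.21 and Vsir, which encodes VISTA, also at -3.21, and with the offset they had -2.27 (adjusted p = 0.0909) and -1.18 (adjusted p = 0.103). The medians of the list were 0.43 in WT and 1.20 in TCF-1 cKO with transplant, against -0.30 and -0.29 over all genes. Pre-transplant none of the genes in this list or in the 5 lists that follow passed between the genotypes, and none passed the interaction.

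Of 6 opposing and partner receptors, 3 rose with transplant in WT and 4 in TCF-1 cKO, with none lower and medians of 1.96 and 2.48. Cd226, the activating counterpart of TIGIT, rose by 3.77 (SE 0.86) in WT and 6.08 (SE 0.69) in TCF-1 cKO, Icos by 1.92 and 4.60, Adora2a, a receptor for adenosine, by 3.70 in WT, and Cd28 by 2.73 in TCF-1 cKO. Post-transplant Adora2a and Tnfsf14, which encodes the HVEM ligand LIGHT, were lower in TCF-1 cKO by 3.52 and 1.78, at GC contents of 60.5% and 55.5%, and were not called with the offset (adjusted p = 0.151 and 0.507). Of 13 ligands, 1 rose and 1 fell in WT with transplant and 3 rose and 3 fell of 12 tested in TCF-1 cKO, with medians of -0.61 and 0.38. Cd274, which encodes PD-L1, fell by 2.66 in WT, while Cd48 and Hmgb1 rose by 5.82 and 3.34 and Tnfrsf14, the receptor of CD160 and BTLA, fell by 2.78 in TCF-1 cKO. Lgals9, which encodes galectin-9, was lower in post-transplant TCF-1 cKO by 2.47 (adjusted p = 0.0448, and 0.0910 with the offset), and Fgl2 was higher by 1.84 (adjusted p = 0.0547, and 0.289 with the offset).

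Among 10 genes of intracellular signalling, 5 were lower in post-transplant TCF-1 cKO and none higher, and with the offset 2 were lower. The median of the list was -1.07, against 0.15 over all genes. Csk, Inpp5d and Bag6 were lower by 3.42, 2.33 and 3.65, and Inpp5d, which encodes the phosphatase SHIP-1, remained called at -1.81 (adjusted p = 0.0909) with the offset. With transplant 1 of the 10 rose in WT, Sh2d1a, the adaptor SAP, by 3.65, and in TCF-1 cKO 2 rose and 2 fell, Sh2d1a by 5.07 and Fyn by 2.004 upward and Inpp5d by 2.21 downward. Of 15 transcription factors of exhaustion other than the members, 14 were tested. With transplant 4 rose and 3 fell in WT and 5 rose and 4 fell in TCF-1 cKO, with medians of 0.31 and 0.75. Batf rose by 3.999 (SE 0.49) in WT and 5.98 (SE 0.52) in TCF-1 cKO, Id2 by 2.27 and 3.98 and Tbx21, which encodes T-bet, by 2.89 and 2.67. Post-transplant Nr4a1, Tbx21 and Nfatc1 were lower in TCF-1 cKO by 3.37, 3.10 and 2.49, and with the offset Nr4a1, a factor induced by T cell receptor signalling, had -1.99 (adjusted p = 0.0916) and the others were not called.

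Of 11 genes of progenitor-like cells, 7 fell and 1 rose with transplant in WT, and 7 fell and 2 rose in TCF-1 cKO, with medians of -2.71 and -2.70. Cxcr5 and Ccr7 fell by 6.05 and 4.54 in WT, and Cxcr5 by 7.46 in TCF-1 cKO, where the chemokine gene Xcl1 rose by 4.12. Cxcr5 and Ccr7 are also genes of B cells, whose markers fell alongside. Between the genotypes post-transplant Id3 was called, at -4.55 (SE 0.81, adjusted p = 0.0448) and -3.31 (adjusted p = 0.0909) with the offset, and its groups did not overlap. Xcl1 was called with the offset alone, at -1.39 (adjusted p = 0.0928).

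The genes most like Pdcd1 and Tox, the receptor and the factor stained in the study, were found by Pearson's r of log2 normalized CPM over the 12 libraries among 21526 genes. For Pdcd1 they were Ndufa10, Rab8a and Yipf1, with r of 0.989, 0.987 and 0.987. Of the other members Cd160 and Tigit were nearest to Pdcd1, each with r of 0.89, and Btla was farthest with -0.52. For Tox they were Lsm12, Kars and Trbj1-4, with r of 0.977, 0.969 and 0.962, and Cd160 was the member nearest to Tox, with r of 0.93. These values describe 12 libraries that share stage, depth and GC trend.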

How the data were processed

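CD8 T cell RNA was made into cDNA with a SMART-Seq HT kit and Nextera XT libraries, and sequenced paired-end. The authors pseudoaligned reads with Kallisto 0.46.2 and deposited an estimated count and a TPM for each transcript and library. Their processing notes name mm9, and the transcript release is not given in the sources used here. Transcript identifiers were joined to GENCODE M21 (GRCm38), which gave a gene to 116374 of 117497, and the estimated counts and TPM were summed per gene, the counts then being rounded.

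Each comparison used its 6 libraries in the quasi-likelihood test of edgeR 4.0.16 (R 4.3.3; TMM, filterByExpr, Benjamini-Hochberg adjustment, FDR 0.1, after the FDR of the study's methods), and the interaction used all 12. Floors cover counting error only, while SDs and SEs take in the spread between libraries. Fold changes are log2, with SE. Alternatives were limma 3.58.1 (voom, or log2(TPM + 1)), DESeq2 1.42.0, other scalings and filters, a GC content and length offset (loess, span 0.4, degree 2), a replicate block, thinned counts and each library left out. Scripts were tested on simulated data. Libraries of a group differed beyond sampling noise (chi-square over degrees of freedom at least 22.5). A post-transplant TCF-1 cKO library with labels naming CD4 and CD8 T cells was kept as CD8.

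The members and lists were chosen with earlier results of these data known. Named were all 10 members, Tcf7 and Cd8a, Cd8b1 and Cd4 as checks, for each list and comparison at most 3 called genes with the smallest p whose groups did not overlap, and for Pdcd1 and Tox the 3 genes with the highest correlation. Some genes that meet this rule are not reported here.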

Additional observations from a re-analysis of the deposited data

Results flagged for a closer look

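Tigit and Cd160 had genotype differences of opposite direction before and after transplant in every library. All 3 pre-transplant TCF-1 cKO libraries lay above all 3 WT libraries for Tigit and all 3 post-transplant ones below, a change of the log2 genotype difference of -2.62. For Cd160 the order was the reverse, with a change of 3.40. The interaction term of the edgeR fit tested both changes, with an adjusted p of 0.233 for each, which missed the threshold. Per 1000 CD8 T cell marker counts in the same library, Cd160 overlapped between the genotypes pre-transplant. It had 28.0, 25.2 and 22.7 in WT and 14.8, 20.8 and 26.0 in TCF-1 cKO. Tigit did not overlap at either stage in this ratio. Over all genes, groups did not overlap for 29.1% pre-transplant and 39.3% post-transplant.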

How the results depend on the processing

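Depth limits Tox2, Ctla4 and Pdcd1 in pre-transplant TCF-1 cKO most, and 3 libraries a group limit every test. Over the single genes, 815 alternative values kept direction and side of the threshold, 56 lost the call, 56 gained one and 52 turned direction. The causes were not tested.

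Pre-transplant between the genotypes, 7 genes of all tested were called, against 2 at an FDR of 0.05 and with limma-voom, 1451 in the DESeq2 Wald test, 341 in limma on log2(TPM + 1), 3 with DESeq2 size factors, 12 with library totals, 619 with no filter, 0 with the replicate block, 13 with the offset, 12 with both, 3 in 1 fit over all 12 libraries and 4 with thinned counts. The DESeq2 Wald test called 2 members. Lag3 turned to -0.014 with limma-voom, -0.041 in the DESeq2 Wald test and with its size factors, -0.33 with no filter, -0.0039 with the replicate block and -0.22 in 1 fit over all libraries. Tox turned to 0.12 in log2(TPM + 1) and 0.055 with library totals, and Entpd1 to 0.51 in log2(TPM + 1) and 0.13 with counts scaled from TPM. Without each library in turn, all genes called ranged from 0 to 2739 (the latter without TCF-1 cKO replicate 3), members from 0 to 1, Lag3 from -0.43 to 0.23, Havcr2 from -0.89 to 0.26 and Ctla4 from -3.35 to 0.10.

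Post-transplant between the genotypes, 2868 genes were called, against 1396 at an FDR of 0.05, 4524 in the DESeq2 Wald test, 829 with the offset and 2 with the offset and the replicate block. The share of higher genes among those called was 14.1%, and 26.0% in 1 fit over all libraries. Members called were 4, against 1 at an FDR of 0.05 and with the offset, 2 with counts scaled from TPM, 0 with the offset and the block, 6 in the DESeq2 Wald test and 5 in limma on log2(TPM + 1). Entpd1 turned to 0.13 with library totals and 0.017 in 1 fit over all libraries, Tox to -0.58 with the offset, -0.61 with the block as well and -0.76 with the offset and without WT replicate 3, and Ctla4 to -0.26, -0.15 and -0.23. Without each library, all genes called ranged from 0 to 5299 and members from 0 to 7, 7 being without WT replicate 3, with Tox from -0.15 to 0.35 and Ctla4 from -0.21 to 0.55.

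With transplant in WT, 3362 genes were called, and 6732 in log2(TPM + 1), with 1579 to 4156 and 4 to 8 members as each library was left out. In log2(TPM + 1) Tox turned to -0.13, Tox2 to -0.065 and Entpd1 to -0.92, and Entpd1 to -0.62 with library totals and from -0.32 to 0.71 without each library. In TCF-1 cKO, 6774 genes were called, against 13174 in log2(TPM + 1) and 12268 with library totals. Btla turned to 0.12 with limma-voom, 0.034 in the DESeq2 Wald test and with its size factors and 0.094 with the block, and ranged from -0.25 to 0.30 without each library. Tox2 turned to -0.40 and -1.09, Entpd1 to -1.58 and -0.39 and Lag3 to -0.47 in log2(TPM + 1) and, for the first 2, with library totals.

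For the interaction, 1 gene was called, against 1713 in the DESeq2 Wald test, 114 in log2(TPM + 1), 5 with library totals, 580 with no filter, 0 with the block, with or without the offset, 2 with the offset and 680 with the offset and without WT replicate 3. Members called were 3 in the DESeq2 Wald test and with no filter, 2 in log2(TPM + 1) and 4 with the offset and without WT replicate 3. Pdcd1 turned to -0.22 and Entpd1 to -0.66 in log2(TPM + 1), and Entpd1 to -0.18 with counts scaled from TPM. Without each library, all genes called ranged from 0 to 2093, members from 0 to 4, Tox2 from -2.27 to 0.33 and Pdcd1 from -0.35 to 0.84.

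Replicate numbers are shared between groups, but same-numbered libraries deviated together with r of 0.12, 0.05 and 0.16 post-transplant, 0.05, -0.05 and 0.03 pre-transplant, 0.07, 0.24 and 0.01 between the WT stages and -0.02, -0.08 and -0.16 between the TCF-1 cKO stages, and so were not taken as pairs. Post-transplant 6 of 6 libraries correlated best with their own number, a hint from the data. The replicate block gave 2038 called genes and 3 members there, with Pdcd1 called (adjusted p = 0.0805) and Tigit (0.109) and Tox2 (0.333) not called.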
